A study of Homo sapiens with 6 samples.

Results

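The G1 cyclins with their kinases, the retinoblastoma gene RB1 and the transcription factor gene E2F1 were examined in cells of one leukaemia line held by 2 biorepositories. The set was given as 10 gene symbols: the D-type cyclins CCND1, CCND2 and CCND3, their kinases CDK4 and CDK6, the E-type cyclins CCNE1 and CCNE2 with their kinase CDK2, RB1 and E2F1. All 10 were found among the 34918 genes to which transcripts were assigned, and all 10 passed the filter on low counts. THP-1 cells are a suspension line derived from the blood of a patient with acute monocytic leukaemia. The first group was 3 libraries of poly(A) RNA from THP-1 cells of the German collection DSMZ, and the second was 3 libraries from THP-1 cells of the American Type Culture Collection (ATCC). All cells were untreated, grown side by side in RPMI with 20% fetal bovine serum at 37 °C and 5% CO2, and collected during logarithmic growth. The labels call the replicate expansions of each stock independent, so the spread is that between expansions. Each repository is represented by the cells obtained from it, so the repository and the particular stock cannot be told apart.

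Passage through G1 is controlled by a short chain of proteins. D-type cyclins, made in response to growth signals, bind CDK4 or CDK6 and start the phosphorylation of RB, the pocket protein that holds E2F transcription factors inactive. Released E2F factors then raise the transcription of E-type cyclins, of E2F1 itself and of genes for DNA synthesis, and cyclin E with CDK2 completes the phosphorylation of RB. INK4 proteins inhibit CDK4 and CDK6, and CIP/KIP proteins inhibit the cyclin E and CDK2 complex. In blood cells CDK6 and cyclin D3 are prominent members of this chain.

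The libraries held between 23413428 and 37119721 estimated counts. ATCC replicate 2 stood apart from ATCC replicates 1 and 3: with tested genes split into 10 groups by GC content, its median deviation from them was -0.92 on the log2 scale in the lowest group and 0.35 in the highest. For each of the 10 genes whose call or direction depends on this library, values are given below with and without it. Of 10 markers of monocytic leukaemia cells, all were tested, and they summed to 1148 to 1300 CPM (counts scaled to the library total, not to gene length) in DSMZ and 1137 to 1387 CPM in ATCC. Of them 2 rose, 4 fell and 4 did not pass. The receptor genes CD4 (272 ± 10.98 CPM in DSMZ and 158 ± 19.4 CPM in ATCC) and CSF1R (119.5 ± 17.5 CPM in DSMZ and 78.9 ± 17.4 CPM in ATCC) rose. The transcription factor gene SPI1 (97.5 ± 4.88 CPM in DSMZ and 129.8 ± 20.2 CPM in ATCC) and the Fc receptor gene FCGR1A (50.8 ± 3.71 CPM in DSMZ and 68.8 ± 5.39 CPM in ATCC) fell. The myeloid antigen gene CD33 (24.6 ± 1.66 CPM in DSMZ and 61.2 ± 4.56 CPM in ATCC) and the monocyte lipopolysaccharide receptor CD14 also fell, and CD14 was scarce in both, at 0.334 ± 0.0928 CPM in DSMZ and 1.32 ± 0.371 CPM in ATCC (SD, n = 3). The T cell marker CD3E, the B cell marker MS4A1 and the platelet marker PF4 had 0 counts in all 6 libraries. Other markers of these lists were expressed. Of the T and NK cell markers 2 were tested and 2 fell in DSMZ, and of the B cell markers 3 were tested and 2 rose. Of the erythroid and megakaryocyte markers 1 was tested, as was 1 of the epithelial and fibroblast markers, and neither passed. Of all tested genes 49.8% passed the test described below. The 5 T and NK cell markers summed to 2.95 to 4.47 CPM in DSMZ and 8.72 to 11.3 CPM in ATCC, the 4 B cell markers to 10.1 to 11.1 and 5.37 to 6.96 CPM, the 5 erythroid and megakaryocyte markers to 0.945 to 1.98 and 0.832 to 1.28 CPM, and the 6 epithelial and fibroblast markers to 1.17 to 1.63 and 1.52 to 2.08 CPM in DSMZ and ATCC. Their part in the results below was not tested.

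Of the 10 genes, 5 passed the test between the sources. CCND3, CDK2, RB1 and E2F1 rose in DSMZ cells relative to ATCC cells, and CCND1 fell. CCND2, CDK4, CDK6, CCNE1 and CCNE2 did not pass. The test was edgeR's quasi-likelihood test over 14572 genes with an adjusted p threshold of 0.05. Of all tested genes 49.8% passed it, 24.1% higher in DSMZ and 25.7% lower, so that 5 of 10 is the share found among genes at large. In 6 of the 10 the DSMZ and ATCC libraries did not overlap in CPM, against 62.4% of all tested genes. The median log2 fold change (DSMZ over ATCC) of the 10 was 0.27, and that of all tested genes was 0.01. Without ATCC replicate 2, 7 of the 10 passed, with CDK6 and CCNE2 added, where 64.1% of tested genes did. With a correction for GC content 6 passed, with CCNE2 added, where 63.8% of tested genes did. In 17 of 22 other settings 4 of the 10 passed, without E2F1.

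**Figure D1:**
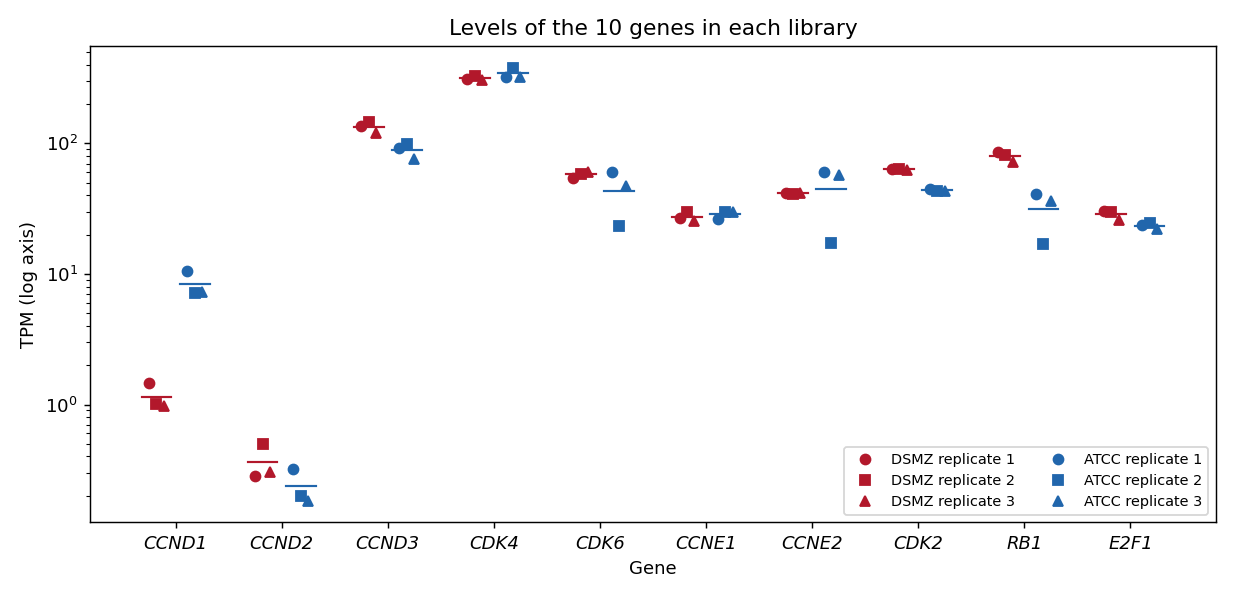
TPM (transcript abundance scaled to length and to the library) of each of the 10 genes on a log axis, with DSMZ libraries in red left of ATCC libraries in blue and short lines at the means of 3. CCND1 is lower in every DSMZ library, and CCND3, CDK2, RB1 and E2F1 are higher in every DSMZ library. ATCC replicate 2 is the lowest ATCC point for CDK6, CCNE2 and RB1, and by a small margin for CCND1 and CDK2.

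Levels per length gave the order of the genes within each source. In DSMZ, CDK4 was highest at 316 ± 12.1 TPM, followed by CCND3 (134 ± 13.1), RB1 (79.8 ± 6.81), CDK2 (63.0 ± 0.0916), CDK6 (57.8 ± 2.84) and CCNE2 (41.4 ± 0.514 TPM, SD, n = 3). E2F1 (28.6 ± 2.52 TPM) and CCNE1 (27.4 ± 2.36 TPM) came next, and their DSMZ libraries overlapped. The place of CCNE2 above them rests in part on short transcripts with few reads, given below. CCND1 (1.15 ± 0.282 TPM) and CCND2 (0.361 ± 0.118 TPM) were lowest. In ATCC the order began in the same way, with CDK4 at 343 ± 32.6 and CCND3 at 88.7 ± 11.7 TPM. There CCNE2 (45.0 ± 24.1), CDK2 (43.6 ± 0.770), CDK6 (43.5 ± 18.9), RB1 (31.4 ± 12.9) and CCNE1 (28.7 ± 2.10 TPM) followed, each overlapping the next. E2F1 (23.5 ± 1.31), CCND1 (8.33 ± 1.90) and CCND2 (0.236 ± 0.0756 TPM) closed the ATCC order, none overlapping its neighbour.

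Among the D-type cyclins, CCND1 and CCND3 changed in opposite directions. CCND1 (ENSG00000110092; chromosome 11, 69641087 to 69654474, plus strand), the cyclin D1 gene, had 1.47, 1.00 and 0.966 TPM in the DSMZ libraries, against 10.5, 7.16 and 7.31 TPM in the ATCC libraries. Every ATCC library lay above every DSMZ library. In counts it had 3.74 ± 0.331 CPM in DSMZ and 24.4 ± 1.75 CPM in ATCC (SD, n = 3), and it was 6.54-fold lower in DSMZ (log2 fold change -2.71, SE 0.13; edgeR adjusted p = 9.26e-06). This was the largest absolute fold change of the 10 genes. In bulk RNA fewer cells that express a gene and less RNA per cell cannot be told apart. The full-length transcript CCND1-201 carried 90.3% of the gene's summed TPM in DSMZ and 82.2% in ATCC. A short retained-intron transcript, CCND1-206, carried 9.72% and 14.8%. In DSMZ this rested on 0.909 estimated counts in replicate 1. In ATCC most of it lay in replicate 1, where it had 3.23 TPM from 10.2 estimated counts. CCND1 shared 9.14% of its distinct 31-base words, the unit kallisto matches, with other genes, nearly all with LTO1, which overlaps its end on the opposite strand. LTO1 had 10.1 ± 0.708 CPM in DSMZ and 14.6 ± 1.30 CPM in ATCC (log2 fold change -0.53, SE 0.12; edgeR adjusted p = 0.00784).

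CCND3 (ENSG00000112576; chromosome 6, 41934933 to 42050357, minus strand), the cyclin D3 gene, was the main D-type cyclin of both stocks. It had 136, 145 and 119 TPM in the DSMZ libraries, against 92.5, 98.2 and 75.6 TPM in the ATCC libraries, without overlap. It rose 1.53-fold in DSMZ (log2 fold change 0.61, SE 0.12; edgeR adjusted p = 0.00442). CCND2 (ENSG00000118971; chromosome 12, 4273772 to 4305350, plus strand), the cyclin D2 gene, was scarce. It had 131 estimated counts over the 3 DSMZ libraries and 106 over the 3 ATCC libraries, or 1.48 ± 0.285 CPM in DSMZ and 1.28 ± 0.369 CPM in ATCC. The groups overlapped, and the gene did not pass (log2 fold change 0.22, SE 0.27; edgeR adjusted p = 0.525). At this depth a difference of that size was not detectable.

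Set against the summed TPM of the D-type cyclins, CCND3 made up 98.7, 99.0 and 98.9% in the DSMZ libraries, against 89.5, 93.0 and 91.0% in the ATCC libraries. CCND1 made up 1.07, 0.684 and 0.801% in DSMZ, against 10.2, 6.78 and 8.79% in ATCC. CCND2 made up 0.205, 0.338 and 0.252% in DSMZ, against 0.312, 0.191 and 0.221% in ATCC. The summed level was 138, 147 and 121 TPM in DSMZ, against 103, 106 and 83.1 TPM in ATCC. The sum was thus higher in DSMZ without overlap, and the ATCC cells held a larger share of cyclin D1 transcripts within a smaller total.

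CCND3 has several annotated starts, and the deposited values divide its level among 23 listed transcripts. Such a split among overlapping transcripts is uncertain, so the levels per start are approximate. The windows of RefSeq (GRCh38.p14; 250 bases before to 50 bases after a start) at its distal and its main start are shown. Transcripts that begin near them held most of the gene's TPM. Both lie on the minus strand, the first at chr6:42048639-42048938 and the second at chr6:41941759-41942058, and both are written 5′ to 3′ on the gene's strand.
CCND3 distal start: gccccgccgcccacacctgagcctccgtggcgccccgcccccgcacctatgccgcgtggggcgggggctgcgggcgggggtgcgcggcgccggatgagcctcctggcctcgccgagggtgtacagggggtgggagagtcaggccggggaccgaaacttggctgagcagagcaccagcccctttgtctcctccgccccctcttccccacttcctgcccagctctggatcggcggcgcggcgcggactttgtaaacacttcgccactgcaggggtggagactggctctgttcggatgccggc
CCND3 main start: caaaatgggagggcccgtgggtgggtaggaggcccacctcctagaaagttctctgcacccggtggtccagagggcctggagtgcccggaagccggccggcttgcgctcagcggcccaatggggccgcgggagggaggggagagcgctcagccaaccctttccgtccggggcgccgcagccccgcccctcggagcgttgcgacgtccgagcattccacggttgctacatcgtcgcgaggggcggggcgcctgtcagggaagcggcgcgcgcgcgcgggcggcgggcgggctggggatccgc
Neither window held a match to the E2F motif described with E2F1, so no letter is in capitals. Transcripts that begin within 250 bases of the main start, led by CCND3-203 and CCND3-204, held 105 ± 8.01 TPM in DSMZ and 68.1 ± 5.87 TPM in ATCC (SD, n = 3). That was 77.3, 77.7 and 81.0% of the gene's TPM in the DSMZ libraries, against 69.6, 76.3 and 86.1% in the ATCC libraries. Transcripts from the distal start held 11.4 ± 2.16 TPM in DSMZ and 9.34 ± 2.35 TPM in ATCC, or 9.33, 8.66 and 7.45% against 12.0, 10.4 and 8.82%. The shares of both starts overlapped between the sources, while the level from the main start did not. CCND3-207, which begins near neither window, held 10.8, 9.81 and 8.55% in DSMZ, against 15.3, 9.84 and 2.15% in ATCC. No transcript was assigned to a further RefSeq start of the gene.

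The kinases that pair with D-type cyclins did not pass the test. CDK4 (ENSG00000135446; chromosome 12, 57747727 to 57756013, minus strand) had 311, 330 and 308 TPM in the DSMZ libraries, against 323, 380 and 325 TPM in the ATCC libraries. The groups overlapped (log2 fold change -0.07, SE 0.12; edgeR adjusted p = 0.647). Of its distinct 31-base words 38.6% also occur in other genes, most of them in TSPAN31, a tetraspanin gene that overlaps the end of CDK4 on the opposite strand. TSPAN31 itself had 26.2 ± 0.848 CPM in DSMZ and 24.1 ± 3.56 CPM in ATCC and did not pass (log2 fold change 0.12); without ATCC replicate 2 it passed at 0.25 (edgeR adjusted p = 0.0197). The level of CDK4 was spread over 15 listed transcripts, of which 4 held at least 10% of its TPM in either source, and such a split of one gene into near-identical forms is uncertain.

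CDK6 (ENSG00000105810; chromosome 7, 92604921 to 92836594, minus strand), the partner kinase prominent in blood cells, had 54.6, 58.7 and 60.0 TPM in the DSMZ libraries, against 60.5, 23.1 and 46.9 TPM in the ATCC libraries. In TPM, ATCC replicate 1 was as high as the DSMZ libraries and ATCC replicate 2 was far below them. In CPM the DSMZ libraries were at 454, 455 and 490, above ATCC replicate 1 at 437. CDK6 is therefore among the 6 genes without overlap in CPM, though it overlapped in TPM. The log2 fold change of CDK6 was 0.51 with an SE of 0.28 (edgeR adjusted p = 0.163). Without ATCC replicate 2 the difference was smaller and passed, at 0.23 with an SE of 0.08 (edgeR adjusted p = 0.0326). The ratio of CDK6 to CDK4 TPM was 0.175, 0.178 and 0.195 in DSMZ, against 0.187, 0.0608 and 0.144 in ATCC. Both stocks therefore held more CDK4 than CDK6 transcripts in every library, and the summed level of both kinases overlapped, at 366 to 389 TPM in DSMZ and 372 to 403 TPM in ATCC. CDK6-201, the long coding transcript, carried 79.0% of the gene's summed TPM in DSMZ and 75.6% in ATCC. The short non-coding CDK6-205 carried 19.9% and 24.0%. That share rested on few reads, 53.3 to 107 estimated counts per library in DSMZ and 32.3 to 95.5 in ATCC. CDK6-201 had between 4781.72 and 17522.8 over the libraries. The RefSeq table has windows for 2 starts of CDK6. CDK6-201 begins at the downstream one, and CDK6-202, the transcript at the upstream one, was at 0 TPM in all 6 libraries.

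Without a GC correction neither E-type cyclin gene passed in the test on all 6 libraries, and with it CCNE2 passed. CCNE1 (ENSG00000105173; chromosome 19, 29811898 to 29824308, plus strand), the cyclin E1 gene, had 26.9, 29.9 and 25.3 TPM in DSMZ, against 26.2, 29.8 and 29.9 TPM in ATCC. The libraries of the sources were interleaved (log2 fold change -0.10, SE 0.13; edgeR adjusted p = 0.552). CCNE2 (ENSG00000175305; chromosome 8, 94879770 to 94896678, minus strand), the cyclin E2 gene, had 41.9, 40.8 and 41.4 TPM in DSMZ, against 60.6, 17.3 and 57.1 TPM in ATCC. ATCC replicates 1 and 3 lay above the DSMZ libraries and ATCC replicate 2 lay below them. With all libraries its log2 fold change was -0.28 with an SE of 0.33 (edgeR adjusted p = 0.513). Without ATCC replicate 2 it was lower in DSMZ, at -0.60 with an SE of 0.10 (edgeR adjusted p = 0.000855), and with the GC correction it was also lower, at -0.47 with an SE of 0.12 (edgeR adjusted p = 0.00955). The ratio of CCNE2 to CCNE1 TPM was 1.55, 1.36 and 1.64 in DSMZ, against 2.31, 0.579 and 1.91 in ATCC. The short transcripts CCNE2-204 and CCNE2-206, annotated for nonsense-mediated decay, carried 17.9% and 14.0% of the summed TPM in DSMZ. In ATCC they carried 6.85% and 15.7%. CCNE2-204 rested on 16.9 to 39.5 estimated counts per library in DSMZ. In ATCC it had 30.9 in replicate 3 and 0 in replicates 1 and 2. The TPM of CCNE2 and this ratio thus depend on an uncertain split among transcripts. CCNE2 shared 36.0% of its 31-base words with INTS8, an Integrator subunit gene that overlaps its end on the opposite strand. INTS8 had 61.9 ± 3.25 CPM in DSMZ and 115 ± 38.3 CPM in ATCC (log2 fold change -0.89, SE 0.24; edgeR adjusted p = 0.0163), and its log2 fold change was -1.13 without ATCC replicate 2. The strand setting used in counting was not stated in the labels, so the split of reads between such partners is uncertain.

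CDK2 (ENSG00000123374; chromosome 12, 55966769 to 55972784, plus strand), the kinase bound by E-type cyclins, varied little within each source. It had 63.1, 63.0 and 63.0 TPM in the DSMZ libraries, against 44.5, 43.1 and 43.2 TPM in the ATCC libraries, without overlap. It rose 1.56-fold in DSMZ (log2 fold change 0.64, SE 0.08; edgeR adjusted p = 0.000654). The coding transcript CDK2-201 carried 81.8% of the gene's summed TPM in DSMZ and 78.5% in ATCC. Whether CDK2 and the cyclins differ in their response was not tested. PMEL, a melanosome gene that spans CDK2 on the opposite strand, rose as well, at 2.97 ± 0.0970 CPM in DSMZ and 0.534 ± 0.0960 CPM in ATCC (log2 fold change 2.47, SE 0.20; edgeR adjusted p = 7.32e-05). Of the distinct 31-base words of CDK2, 0.98% also occur in PMEL.

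RB1 (ENSG00000139687; chromosome 13, 48303726 to 48599436, plus strand), the pocket protein gene that restrains E2F factors, was the member that rose most. It had 86.0, 80.9 and 72.5 TPM in the DSMZ libraries, against 41.1, 16.9 and 36.3 TPM in the ATCC libraries. All DSMZ libraries lay above all ATCC libraries, and ATCC replicate 2 was the lowest. RB1 was 2.72-fold higher in DSMZ (log2 fold change 1.45, SE 0.30; edgeR adjusted p = 0.00504). Without ATCC replicate 2 the log2 fold change was 1.16 with an SE of 0.09 (edgeR adjusted p = 8.83e-06). With the GC correction it was 1.24 with an SE of 0.10 (edgeR adjusted p = 1.38e-05). The full-length transcript RB1-201 had 67.8, 62.8 and 58.0 TPM in DSMZ, against 32.8, 12.2 and 26.0 TPM in ATCC. A short non-coding transcript within the last part of RB1-201, RB1-206, held 16.9% of the summed TPM in DSMZ and 23.7% in ATCC. That share rested on few reads, 111 to 147 estimated counts per library in DSMZ and 37.7 to 89.2 in ATCC. RB1-201 had between 1332 and 8711 over the libraries. No 31-base word of RB1 occurred in another gene. LPAR6, a lysophosphatidic acid receptor gene that lies within RB1 on the opposite strand (48389567 to 48444704), was named after its values were seen. It went the other way, at 0.260, 0.212 and 0.278 CPM in DSMZ, against 7.91, 2.35 and 5.31 CPM in ATCC (log2 fold change -4.35, SE 0.53; edgeR adjusted p = 0.000442; -4.68 without ATCC replicate 2).

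E2F1 (ENSG00000101412; chromosome 20, 33675683 to 33686404, minus strand), the activator E2F that also drives its own gene, rose slightly in DSMZ. It had 30.4, 29.8 and 25.7 TPM in the DSMZ libraries, against 23.8, 24.6 and 22.0 TPM in the ATCC libraries. The groups did not overlap, and the gap between the lowest DSMZ and the highest ATCC library was small. The rise was 1.24-fold (log2 fold change 0.31, SE 0.11; edgeR adjusted p = 0.0434). The gene passed in 4 of 22 other settings, over which the edgeR, limma or DESeq2 adjusted p ranged from 0.00137 to 0.230. It did not pass when any 1 of the other 5 libraries was left out (edgeR adjusted p 0.0613 to 0.230). With ATCC replicate 2 left out the log2 fold change was 0.38 with an SE of 0.08 (edgeR adjusted p = 0.00238). The ratio of RB1 to E2F1 TPM was 2.83, 2.72 and 2.82 in DSMZ, against 1.73, 0.686 and 1.65 in ATCC, so that RB1 transcripts exceeded E2F1 transcripts in every library but ATCC replicate 2.

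The RefSeq window at the start of E2F1 (GRCh38.p14, minus strand, chr20:33686336-33686635) is shown because E2F1 is regulated by E2F sites in its own promoter. It is written 5′ to 3′ on the gene's strand, with matches to the E2F motif in capitals.
E2F1: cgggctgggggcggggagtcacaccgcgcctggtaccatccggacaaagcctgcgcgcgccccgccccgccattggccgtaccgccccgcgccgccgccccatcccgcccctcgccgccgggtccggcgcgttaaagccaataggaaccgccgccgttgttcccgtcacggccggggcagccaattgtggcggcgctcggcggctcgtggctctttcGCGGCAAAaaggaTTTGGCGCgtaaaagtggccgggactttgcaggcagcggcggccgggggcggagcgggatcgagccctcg
The motif was searched on both strands as the letter strings TTTGGCGC, TTTCCCGC, TTTGCCGC and TTTCGCGC. The window held 2 matches that do not overlap, the upstream one reading TTTGCCGC on the other strand and the downstream one TTTGGCGC. Of 35116 RefSeq windows of the same length, 3.3% held a match. The other 8 windows found for CCND3, CDK4, CDK6, CCNE1 and RB1 held none (that of RB1 is an internal start, where RB1-206 begins), which says only that these letters are not in those 300 bases. CCND1, CCND2, CCNE2 and CDK2 had no window.

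**Figure D2:**
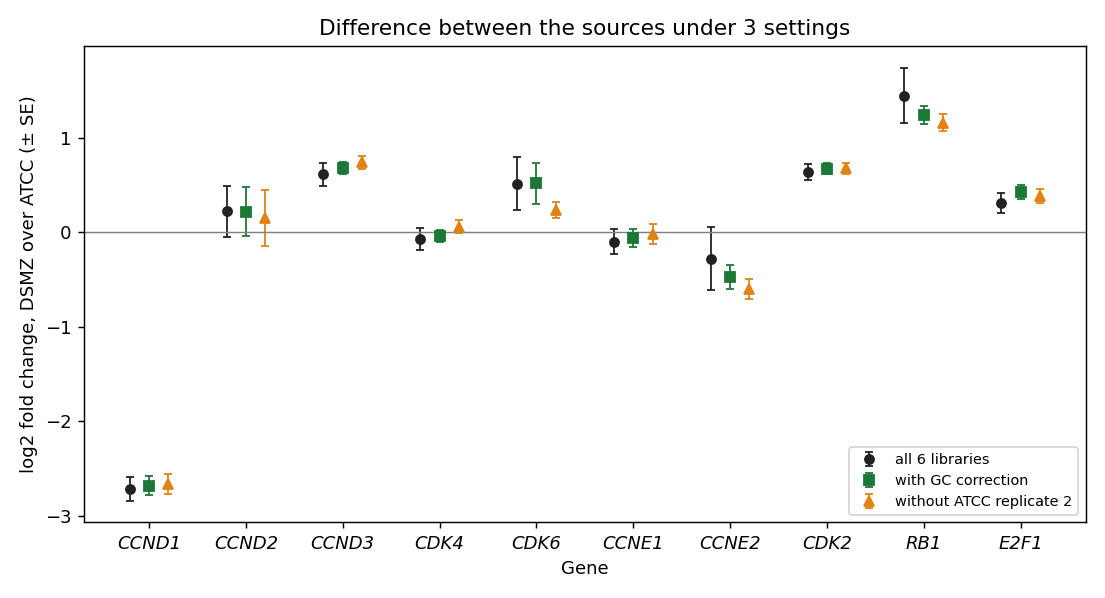
Log2 fold change (DSMZ over ATCC) with its standard error for each of the 10 genes with all 6 libraries (black), with the GC correction (green) and without ATCC replicate 2 (orange). Error bars are widest for CDK6, CCNE2 and RB1 with all libraries, and CCND1 keeps a value near -2.7 in all 3 settings.

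The distance of ATCC replicate 2 from its group went with the GC content of the transcripts. CCNE2 (37.9% GC) and RB1 (38.2% GC) deviated by -1.35 and -1.17 log2 units in ATCC replicate 2 from the mean of ATCC replicates 1 and 3. The median of tested genes in the same group of GC content was -0.92. CDK6 (45.5% GC) deviated by -1.12 there, while genes in its GC group had a median of -0.16. Of the other genes, CCND2 (46.8% GC) deviated by -0.19, and CDK2, CCND1, CCNE1, E2F1, CCND3 and CDK4 by 0.09 to 0.34. The GC correction narrowed the SE of RB1 to 0.10 and that of CCNE2 to 0.12, and that of CDK6 was 0.22.

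**Figure D3:**
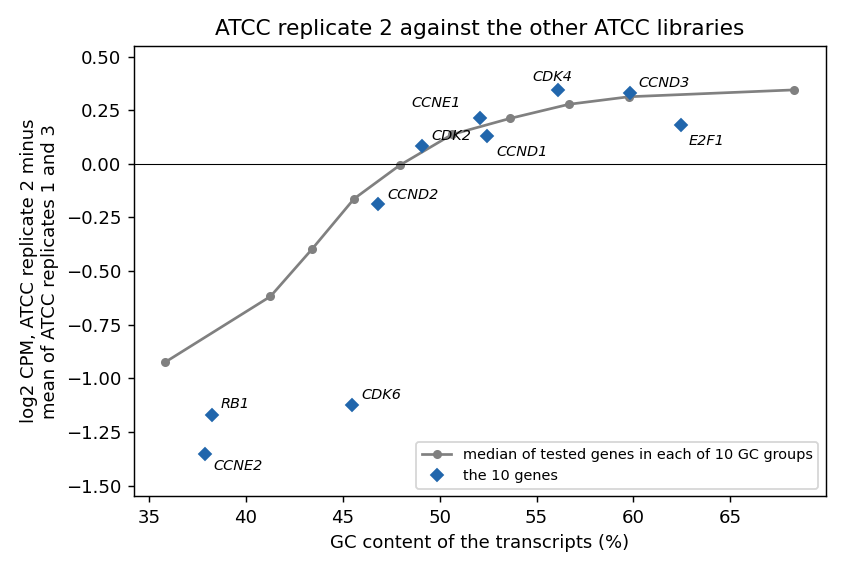
Deviation of ATCC replicate 2 from the mean of ATCC replicates 1 and 3 (log2 CPM) against the GC content of the transcripts (%). Grey points joined by a line are medians of tested genes in 10 groups of GC content, from -0.92 to 0.35, and blue diamonds are the 10 genes, of which CDK6 lies farthest below the line.

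The position of the genes gave a further property that did not enter their choice. CCND2, CDK4 and CDK2 all lie on chromosome 12, where the median of the other tested genes was 0.20. Around CCND2, on the short arm, the 84 other tested genes within 5 Mb had a median log2 fold change of 1.04, with 65 higher and 6 lower in DSMZ, while CCND2 itself was at 0.22 (difference -0.82). CDK2 and CDK4 start 1.78 Mb apart, so their windows hold largely the same genes and each includes the other gene. Within 5 Mb of CDK2 the median was 0.41 and within 5 Mb of CDK4 it was also 0.41. CDK2 lay above that value by 0.23, and CDK4 lay below it (difference -0.48). On chromosome 8 the median was -0.86, with 327 of 468 tested genes lower in DSMZ, and within 5 Mb of CCNE2 it was -0.99. CCNE2, at -0.28, thus lay 0.71 above its neighbours.

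On chromosome 11 the median was -0.36, and within 5 Mb of CCND1 it was -0.41, so CCND1 lay far below its neighbourhood (difference -2.30). RB1 lay 1.09 above the median of 0.35 of the 56 genes within 5 Mb. CCND3 was 0.53 above a local median of 0.08, and CDK6 was 0.34 above one of 0.18. CCNE1 was below a local median of 0.45 (difference -0.55). E2F1, at 0.31, was level with the median of chromosome 20, which was 0.32, and 0.10 above that of the 85 genes within 5 Mb. Leaving out ATCC replicate 2, the distance from the genes within 5 Mb was 0.24 for CDK6, 0.51 for CCNE2, 0.97 for RB1 and -0.38 for CDK4. These are descriptions with no test.

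**Figure D4:**
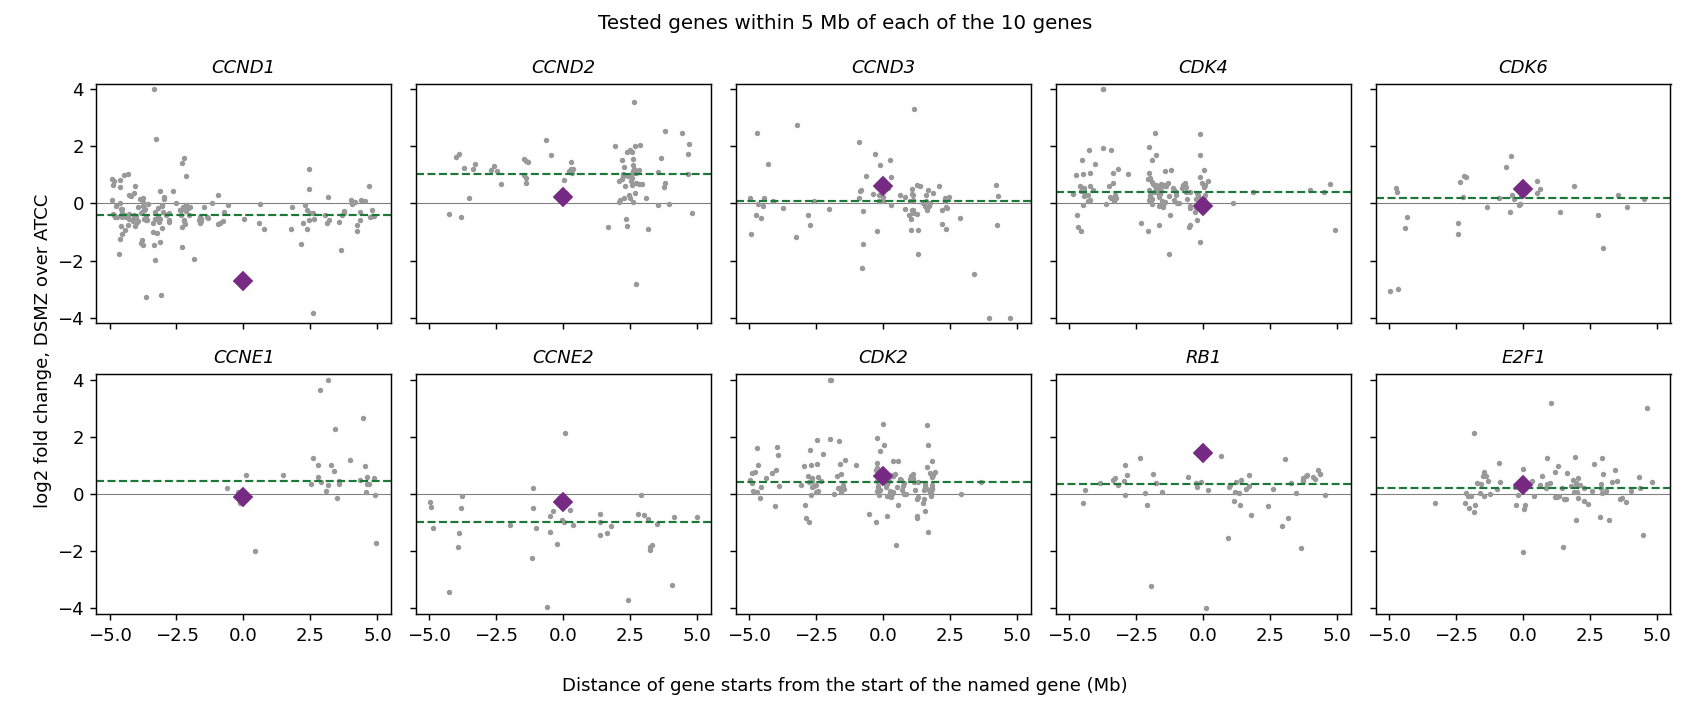
Log2 fold change (DSMZ over ATCC) of tested genes within 5 Mb of each of the 10 genes against the distance between gene starts (Mb). Purple diamonds are the named genes, grey points their neighbours (values beyond 4 in size are drawn at 4), and dashed lines the neighbours' medians, from -0.99 around CCNE2 to 1.04 around CCND2.

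Of 7 inhibitor genes of the INK4 and CIP/KIP families 5 were tested, and 3 rose and 1 fell in DSMZ, where 24.1% of all tested genes were higher and 25.7% lower. Their median log2 fold change was 0.57, against 0.01 for all tested genes. These shares, and 64.1% in either direction with ATCC replicate 2 left out, are also the background of the list counts that follow. CDKN1A, the CIP/KIP inhibitor induced by cell stress, had 58.8, 56.2 and 49.8 CPM in DSMZ, against 6.85, 7.23 and 7.31 CPM in ATCC. It was 7.70-fold higher in DSMZ (log2 fold change 2.95, SE 0.11; edgeR adjusted p = 4.74e-06). CDKN1B, the inhibitor of cyclin E and CDK2 complexes in resting cells, had 54.3, 57.2 and 62.3 CPM in DSMZ, against 36.3, 25.4 and 31.9 CPM in ATCC (0.89, SE 0.15). The INK4 gene CDKN2D rose at a low level, with 4.92 ± 0.584 CPM in DSMZ and 3.31 ± 0.446 CPM in ATCC (0.57, SE 0.17). CDKN2C, the most abundant INK4 gene, fell, with 213 ± 16.8 CPM in DSMZ and 299 ± 26.1 CPM in ATCC (-0.49, SE 0.10). The INK4 genes CDKN2A and CDKN2B were at 0 counts in each of the 6 libraries; by counting error alone a level of up to 0.0344 CPM in DSMZ and 0.0362 CPM in ATCC remains possible (3 counts over each group).

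Among 11 further pocket protein, E2F and DP genes 5 rose and 2 fell in DSMZ (median 0.35). TFDP2, a DP partner that E2F factors need for DNA binding, had 68.1, 65.8 and 71.8 CPM in DSMZ, against 25.4, 23.7 and 24.3 CPM in ATCC (log2 fold change 1.49, SE 0.10). E2F3 (1.04, SE 0.11), E2F2 (0.81, SE 0.13), E2F7 (0.68, SE 0.13) and TFDP1 (0.35, SE 0.07) rose as well. E2F5 (-0.89, SE 0.16) and E2F4 (-0.40, SE 0.11) fell. The pocket protein genes RBL1 (0.41, SE 0.26; edgeR adjusted p = 0.218) and RBL2 (-0.09, SE 0.15; edgeR adjusted p = 0.656) did not pass and were named after their values were seen. With ATCC replicate 2 left out, RBL2 was lower in DSMZ (-0.23; edgeR adjusted p = 0.00595) and RBL1 was at 0.15 (edgeR adjusted p = 0.109). With the GC correction both passed, RBL1 higher at 0.27 (edgeR adjusted p = 0.0374) and RBL2 lower at -0.17 (edgeR adjusted p = 0.0244). Of this list 5 were higher and 3 lower with ATCC replicate 2 left out. Of 6 genes, those of the MuvB core of the DREAM complex and MYBL2, 3 rose and 0 fell (median 0.31). They were LIN37 (0.88, SE 0.16), RBBP4 (0.51, SE 0.07) and MYBL2 (0.40, SE 0.10). RBBP4 also belongs to other chromatin complexes. With that library left out, 4 of these were higher and 1 lower, LIN9 at -0.70.

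E2F target genes of the G1 to S transition went both ways. Of 20 tested, 10 rose and 3 fell in DSMZ, with a median of 0.26. The replication clamp PCNA had 276, 271 and 262 CPM in DSMZ, against 120.3, 107 and 110.5 CPM in ATCC (log2 fold change 1.26, SE 0.09). CDC6, which loads the replicative helicase, had 179.96, 198 and 199 CPM in DSMZ, against 101, 99.2 and 99.8 CPM in ATCC (0.94, SE 0.09). CDC25A, the phosphatase that activates CDK2, rose as well (0.85, SE 0.10). The helicase subunit gene MCM4 fell, with 468 ± 17.0 CPM in DSMZ and 714 ± 21.4 CPM in ATCC (-0.61, SE 0.08). It lies on chromosome 8, whose median was -0.86, and PCNA lies on chromosome 20, whose median was 0.32. The part of position in these changes was not tested. When ATCC replicate 2 was left out, 12 of the 20 were higher and 4 lower.

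Of 8 genes of the CDK-activating kinase, the CDC25 phosphatases and the inhibitory kinases, 2 rose, CDC25B (1.10, SE 0.12) and CDC25A, and 1 fell, CDC25C (-0.63, SE 0.11), with a median of 0.08. Leaving out ATCC replicate 2, 4 were higher and 3 lower. The genes for turnover of cyclins and CIP/KIP proteins had 1 of 10 higher and 4 lower in DSMZ, with a median of -0.09. CUL1, the scaffold of SCF ubiquitin ligases, had 103, 101 and 101 CPM in DSMZ, against 295, 207 and 256 CPM in ATCC (-1.32, SE 0.14). The F-box genes FBXO4 (-1.28, SE 0.10) and FBXO31 (-0.82, SE 0.16), both described as cyclin D1 ubiquitin ligase subunits, fell. GSK3B, a kinase that marks cyclin D1 for turnover, rose (0.78, SE 0.13). Leaving out that library, 3 of this list were higher and 5 lower. Of 5 later cyclin and kinase genes, CDK1 (1.07, SE 0.20; 0.87 without ATCC replicate 2) and CCNA2 (0.48, SE 0.14) rose and CCNB1 fell (-0.42, SE 0.10), with a median of 0.48. Over all 7 lists, counting each gene once, 63 of 65 genes were tested, and 24 rose and 12 fell, against a share of 49.8% passing among all tested genes. The edgeR adjusted p of the listed genes named as changed lay between 4.74e-06 and 0.0235.

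**Figure D5:**
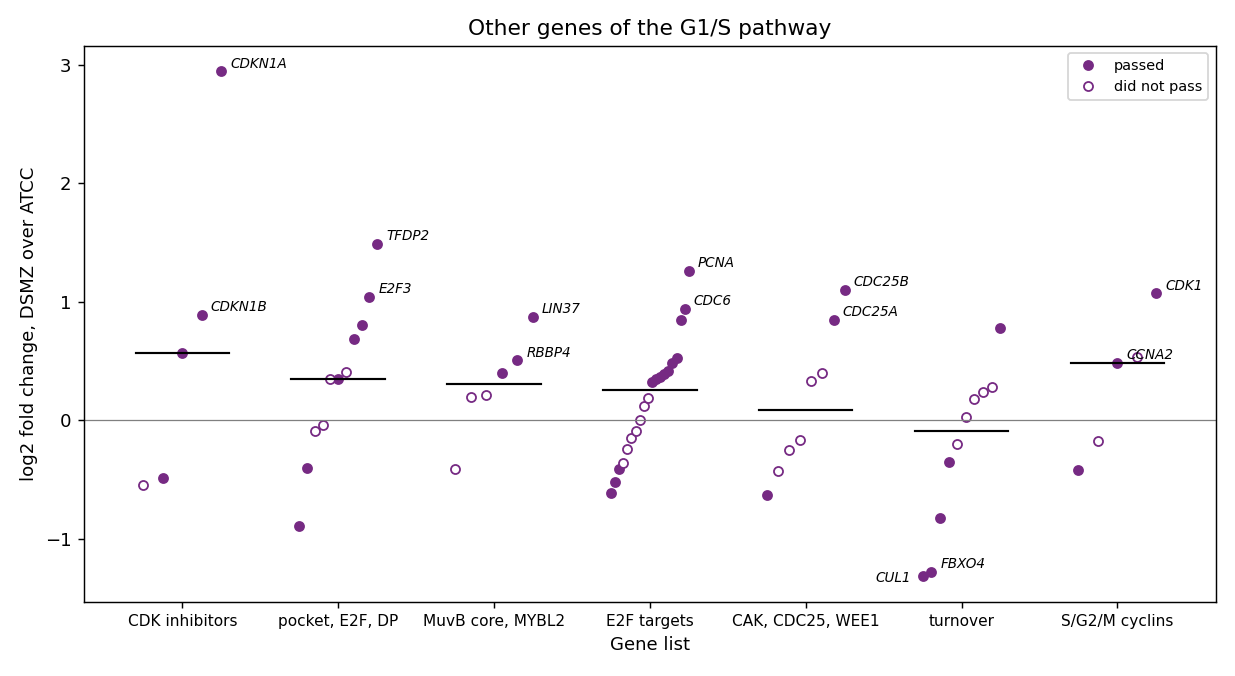
Log2 fold change (DSMZ over ATCC) of tested genes in 7 lists around the G1 cyclins, with filled points for genes that passed the test, open points for those that did not and black lines at list medians. CDKN1A, at 2.95, lies highest, and CUL1, at -1.32, lies lowest.

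The profiles most like that of CCND1, the member with the largest change, were sought among 12424 protein-coding genes with a mean of at least 1 CPM. Likeness was the Euclidean distance between centred log2 CPM values over the 6 libraries. The nearest were IL12RB2, an interleukin 12 receptor subunit gene (distance 0.20, log2 fold change -2.64), LTBP1, a gene for a TGF-beta binding matrix protein (0.23, -2.78), and SPTB, the beta spectrin gene (0.28, -2.81). They lie on chromosomes 1, 2 and 14. IL12RB2 had 23.5, 23.7 and 20.9 CPM in DSMZ, against 143.7, 144.2 and 137.1 CPM in ATCC. With 6 libraries in 2 groups this likeness mainly repeats the difference between the sources.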

How the data were processed

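Poly(A) RNA was sequenced after TRIzol and RNeasy extraction, and per the labels' protocols the library kit (KAPA) was stranded. The submitters' processing notes name bcl2fastq 2.20, Trimmomatic 0.35, kallisto 0.43.0 and the build GRCh38. Annotation release and strand setting: not given in the sources used here. Each deposited file gives estimated counts and TPM per transcript, per the file headers. Of 179973 transcripts, 163714 were matched by ID to GENCODE 29 and 14387 by symbol; 1872 had no gene (0.177 to 0.196% of counts). Estimated counts as deposited are not normalized; they were summed per symbol and rounded.

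Genes were tested with edgeR 4.0.16 (filterByExpr with a minimum count of 10, TMM, quasi-likelihood test) in R 4.3.3. The model held the source alone, and p-values were adjusted by Benjamini and Hochberg. An SE is |log2 fold change| over √F. The biological coefficient of variation was 15.9%. No 2 libraries of a source agreed within sampling noise (chi-square per degree of freedom at least 4.34). The fit was tested on simulated counts. Alternatives were other normalizations, DESeq2 1.42.0, limma 3.58.1 (voom and log2 of TPM with pseudocounts of 0.1, 0.5 and 1), other filters, a replicate block, a GC correction, a length offset, other transcript sets and leaving out each library.

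The 10 genes and all lists were chosen with earlier results of these data known. Named were all 10 genes and, in each list, the genes at 0 counts in a source and up to 4 that passed and whose sources did not overlap, ordered by size of change. Named outside this rule, after values were seen, were RBL1, RBL2, E2F4, E2F7, TFDP1, LIN9 and the markers. So were LTO1, TSPAN31, INTS8, PMEL and LPAR6, which overlap a member. Other overlapping genes were NDUFAF6 with CCNE2 (log2 fold change -0.99), RCBTB2 with RB1 (0.13) and MARCH9 with CDK4 (0.07). Among these last, only NDUFAF6 passed (edgeR adjusted p = 0.000351). Neighbour distances and overlapping genes without ATCC replicate 2 were added after seeing the data.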

Additional observations from a re-analysis of the deposited data

How the results depend on the processing

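CCND1, CCND3, CDK2 and RB1 kept their direction and passed the threshold in all 22 refitted settings, with log2 fold changes of -2.85 to -2.11, 0.52 to 0.74, 0.52 to 0.68 and 1.16 to 1.70. CCND2, CDK4 and CCNE1 passed in none of them. E2F1 passed in 4 of 22, and CDK6 and CCNE2 in 3 each: CDK6 with the GC correction and replicate block, without ATCC replicate 1 and without ATCC replicate 2; CCNE2 with the GC correction, with it and the block, and without ATCC replicate 2. The cause was not tested. With 1 library left out, CDK4 ranged from -0.198 to 0.0588, reversed without ATCC replicate 2, and CCNE2 from -0.601 to 0.0319, reversed without ATCC replicate 1. CCNE2 also reversed with limma on log2(TPM + 0.1), (TPM + 0.5) and (TPM + 1), at 0.0807, 0.077 and 0.0728. E2F1 minus the median of its chromosome was -0.005.

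The number of genes that passed lay between 6253 and 9301 in the settings with all libraries, and between 5508 and 9509 with 1 library left out, when 4 to 7 of the 10 genes and 24 to 49 of the other list genes passed. Without 1 library the difference in the CCND1 share of D-type TPM (DSMZ minus ATCC) lay between -8.64 and -6.94 percentage points, that in the CDK6 to CDK4 ratio between 0.0169 and 0.0802, and that in the CCNE2 to CCNE1 ratio between -0.589 and 0.276. Deviations of same-numbered libraries had correlations of 0.013, 0.08 and 0.161. Those of differently numbered libraries lay between -0.103 and 0.025. With 3 libraries a source, these values cannot decide whether the numbers pair the libraries. With the replicate block 7015 genes and 4 of the 10 passed, E2F1 being the one not passing (log2 fold change 0.31, SE 0.11; edgeR adjusted p = 0.064), and 3 libraries a source limit all tests of small changes.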
